A study of Mustela putorius furo with 2 samples.

Results

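The cells described here were gated as microglia and macrophages by their own RNA, in the dorsal cortex of newborn ferrets. The name held less plainly for some of them, as given below. A cell was a member when the 7 myeloid genes C1QA, C1QB, C1QC, CSF1R, CX3CR1, AIF1 and TYROBP together held at least 3 UMIs, when at least 2 of them were detected, and when the endothelial gene CLDN5 held at most 1 UMI. A UMI (unique molecular identifier) marks 1 captured RNA molecule. C1QB and TYROBP held no UMI in any cell and were treated as unmeasured, so the gate was read from 5 of the 7 genes. It took in 265 of 14787 cells, 130 of 9782 in library A and 135 of 5005 in library B. The values of these genes chose the cells, so they are given below as a description and are not results.

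All cells came from 1 group, wild-type ferrets at postnatal day 3, made as 2 replicates. The labels name no treatment, no transgene and no second age, and they do not say whether the replicates were separate animals. Cortex was dissociated with papain and captured on the 10x Genomics Chromium platform, which reads polyadenylated RNA from droplets that each hold a cell. The 2 barcode suffixes of the matrix were read as the 2 libraries (A and B), and nothing in the labels ties a suffix to a replicate. The p-values below therefore measure only the spread between these 2 libraries, which may be technical. In all, 21 barcode sequences occurred under both suffixes, and 2 of those cells were members.

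Microglia are the resident macrophages of brain tissue. They arise from yolk sac progenitors that enter the embryonic brain, and they depend on signalling through the CSF1 receptor. In the developing cortex they clear dying cells and surplus progenitors, take up synaptic material tagged with complement, and associate with growing axon tracts. Border macrophages are related cells of the meninges and of the spaces around vessels, and carry scavenger receptors such as MRC1, CD163 and LYVE1.

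Members made up 1.33% of library A (95% exact binomial interval 1.11% to 1.58%) and 2.70% of library B (2.27% to 3.18%). These intervals cover counting error only. In library A a member held from 3 to 121 gate UMIs with a median of 9.5, and in library B from 3 to 106 with a median of 6. Gate UMIs thus varied widely among the members. In libraries A and B, 57 and 76 cells held 3 to 7 gate UMIs, whereas 43 and 29 held 30 or more. Just inside the threshold, 45 members held exactly 3 gate UMIs. Just outside it, 84 cells held 2 gate UMIs, 186 held 1, and 12 held 3 or more UMIs of a single gate gene. A further 4 cells, all in library B, met the gate but held more than 1 UMI of CLDN5. The gate genes themselves, as UMIs of a class scaled to the same total in every class and library (CPM), stood at 3457 and 3357 CPM for C1QC, 1683 and 1608 for C1QA and 792 and 733 for AIF1, always with library A first and library B second. CSF1R stood at 338 and 287 CPM and CX3CR1 at 194 and 181 CPM.

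**Figure D1:**
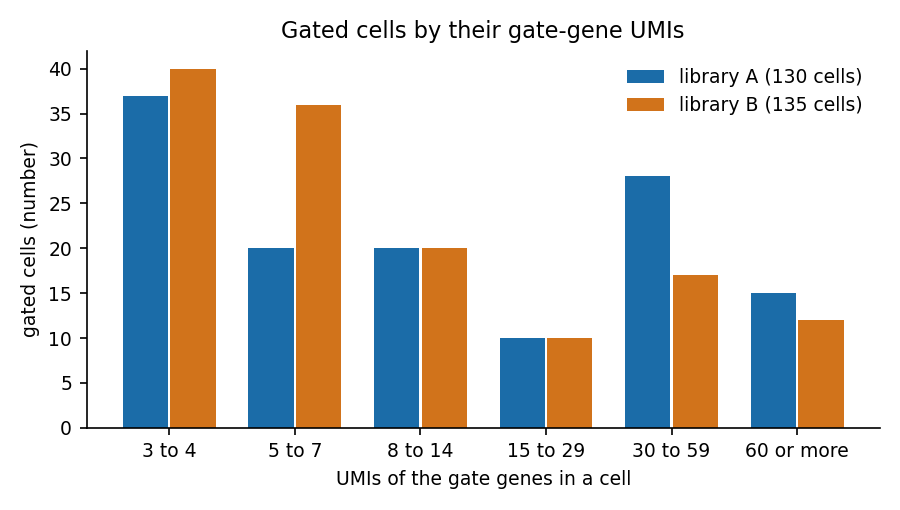
Number of gated cells (vertical axis) by the UMIs of the gate genes in the cell (horizontal axis, ranges), with a bar for each library. At 3 to 7 gate UMIs there are 57 cells in library A and 76 in library B. At 15 to 29 there are 10 cells in each library, and at 30 and above 43 and 29 over the last 2 ranges. In both libraries the bar after 15 to 29 rises again. The ranges differ in width, and whether the counts have a second peak was not tested.

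The label was checked against marker lists before any comparison, and it held for the cells with many gate UMIs more plainly than for those with few. Among cells of 30 or more gate UMIs, a list of microglia surface and homeostatic genes summed to 7698 CPM in library A and 6969 CPM in library B. The same list summed to 1241 and 1054 CPM in members of 3 to 4 gate UMIs, and to 252 and 257 CPM in cells with no gate UMI. A list of neuron genes ran the other way. It summed to 294 and 311 CPM in members of 30 or more gate UMIs, to 3298 and 3109.7 CPM in members of 3 to 4, and to 3519.8 and 3209 CPM in cells with no gate UMI. The members nearest the threshold thus carried neuron RNA at about the level of cells outside the gate, and the cells farthest inside carried an order of magnitude less. A radial glia and astrocyte list was also lowest in the cells farthest inside, but lay below the outside level near the threshold as well, with 984 and 839 CPM at 30 or more gate UMIs against 7531 and 11558 CPM at 3 to 4 and 13844 and 15429 CPM in cells with no gate UMI. The mean Scrublet doublet score of the members was 0.0588 and 0.0544, against 0.0519 and 0.0520 in all other cells. The part of free RNA or of mixed droplets in the members of few gate UMIs was not tested. Results are therefore given for all members and, where a value depends on them, for a strict subset of at least 8 gate UMIs and 4 gate genes (50 cells in library A and 38 in library B).

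**Figure D2:**
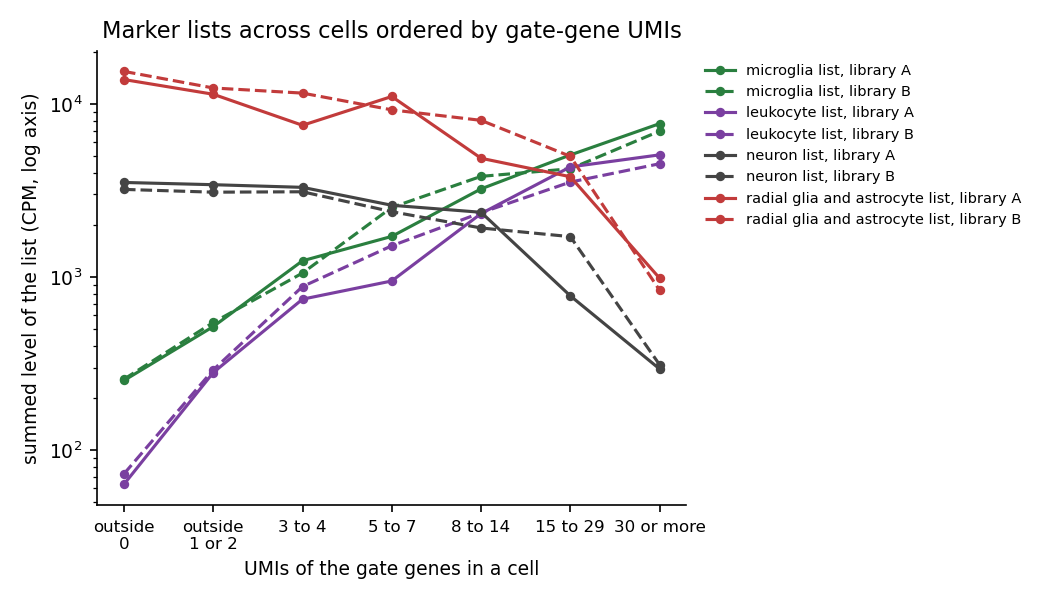
Summed level of 4 marker lists (vertical axis, CPM, log scale) in cells grouped by gate-gene UMIs (horizontal axis, cells outside the gate at the left), with solid lines for library A and dashed lines for library B. The microglia and leukocyte lists climb from left to right, and the neuron and the radial glia and astrocyte lists are lowest at the right, reaching 294 and 984 CPM in library A and 311 and 839 CPM in library B at 30 or more gate UMIs.

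The members held 484832 UMIs in library A and 403694 in library B, against 41351643 and 18503446 in all other cells. A member held a median of 2572.5 and 2015 UMIs, fewer than the 3611 and 3095 of the other cells, whereas strict members held 5462 and 4398.5. Mitochondrial transcripts took a median of 2.52% and 2.91% of a member's UMIs and 1.19% and 1.47% of those of another cell. UMIs were summed per class and library, and members were set against all other cells with the edgeR quasi-likelihood test, paired by library. Of 15169 genes tested, 2250 (14.8%) were higher in the members and 1752 (11.5%) were lower at an adjusted p under 0.05, and 3989 of these 4002 genes had the same sign in both libraries. Among higher genes 1755, and among lower genes 884, had a log2 difference of more than 1. Higher genes were 56.2% of the calls with TMM scaling and 38% with library totals alone (1710 higher and 2795 lower), which shifted the log2 fold change of all genes by a median of -0.26 from its median of -0.14. With only the members of 3 to 7 gate UMIs, 83 genes (0.566% of 14675) were higher and 10 (0.0681%) were lower. Myeloid genes at large go with the genes of the gate, so list counts below are read beside these shares as a description of the gated cells, and not as independent evidence of their identity. The filter on low counts kept a gene that reached its level in the sums of either class. Myeloid genes near 0 in the other cells, such as SPI1 and TNF, were thus tested only through the members, where they were high. Counts and medians of the tested list genes therefore lean toward the higher side.

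Among genes above 100 CPM in the members of both libraries, those with the largest differences included cell surface receptors, a complement component and secreted proteins. SELPLG, the ligand of P-selectin on leukocytes, reached 186 and 154 CPM in the members of libraries A and B against 0.218 and 0.216 CPM in all other cells, a log2 fold change of 9.85 (SE 0.41, edgeR adjusted p 2.62e-44). TREM2, the microglial receptor for lipids and apolipoproteins, stood at 1260.2 and 1187 CPM against 1.4 and 2.16 CPM (log2 fold change 9.78, SE 0.16, edgeR adjusted p 4.31e-88). VSIG4, a macrophage receptor for complement fragments, stood at 518 and 510.3 CPM against 0.726 and 0.865 CPM (log2 fold change 9.62). For each of these genes both libraries of members lay far above both libraries of other cells. IL7R, known best as the interleukin 7 receptor of lymphocytes, stood at 660.0 and 488 CPM against 0.798 and 1.13 CPM (log2 fold change 9.60). CLEC7A, the receptor for fungal glucans, stood at 334 and 325 CPM against 0.435 and 0.703 CPM, and the galectin gene LGALS3 at 524 and 619 CPM against 0.653 and 1.46 CPM, with log2 fold changes of 9.53 and 9.48. RETN, which encodes the secreted protein resistin, stood at 332 and 317 CPM against 0.58 and 0.595 CPM (log2 fold change 9.37). Among the 20 genes with the largest differences, 7 carried only a locus number. LOC101686814 was the highest of these by level, at 2226 and 2197 CPM in the members and 3.07 and 4.43 CPM in the other cells.

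Detection per cell was read after thinning every cell to 1500 UMIs. TREM2 then gave a UMI in 60% and 60% of the members of libraries A and B, in 84.0% and 86.8% of the strict members and in 0.28% and 0.472% of the other cells. Before thinning it was found in 69.2% and 68.1% of the members, in 98.0% and 89.5% of the strict members and in 0.446% and 0.698% of the other cells. Endothelial-gated cells, which are part of the other cells, gave 0% and 0.445% after thinning. P2RY12 gave a UMI in 56.9% and 57.0% of the thinned members, in 90.0% and 84.2% of the strict members and in 2.28% and 2.63% of the other cells. Before thinning, P2RY12 was found in 69.2% and 65.2% of the members and 5.70% and 5.13% of the other cells. Most cells of the strict subset thus showed both receptors, while a cell outside the gate rarely showed either.

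Genes of leukocytes in general were higher throughout. All 17 tested genes of an 18-gene measured list were higher, with a median log2 fold change of 7.20 beside -0.14 for all genes. PTPRC, which encodes the leukocyte phosphatase CD45, stood at 163 and 111 CPM against 1.11 and 0.703 CPM (log2 fold change 7.49). RGS10, a regulator of G protein signalling, stood at 1409 and 1142 CPM against 9.79 and 11.3 CPM, and the tetraspanin gene CD53 at 342 and 309.6 CPM against 0.943 and 1.08 CPM. Of the NADPH oxidase subunits, NCF4 stood at 82.5 and 102 CPM and NCF1 at 30.9 and 17.3 CPM. All of the genes named here were called higher. CD52 held no UMI in the members, which allows up to 6.19 CPM in library A and 7.43 CPM in library B.

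Of the microglia surface and homeostatic list, 22 of 27 genes were measured and 18 tested, of which 16 were higher and 1 was lower (median log2 fold change 4.63). P2RY12, the ADP receptor that guides microglial processes, stood at 1691 and 1315 CPM in the members and 2481 and 2199 CPM in strict members, against 16.2 and 16.2 CPM in all other cells (log2 fold change 6.80, SE 0.13). GPR34, a receptor for lysophosphatidylserine, stood at 959 and 775 CPM against 2.18 and 2.92 CPM (log2 fold change 8.75). BIN1, an adaptor of membrane curvature, stood at 456 and 433 CPM against 16.3 and 14.9 CPM (log2 fold change 5.09). These genes were high in both libraries. Other genes that often define adult microglia were nearly silent or little above the rest. TMEM119 held 4 and 2 UMIs in the 130 and 135 members, and P2RY13 held 5 and 6. The microglial repressor SALL1 stood at 84.6 and 66.9 CPM against 29.9 and 27.8 CPM, and the TGF-beta receptor TGFBR1 at 90.8 and 91.7 CPM against 55.5 and 50.2 CPM, with log2 fold changes of 1.66 and 1.04. MERTK, a receptor for dying cells, was uneven between the libraries at 107 and 39.6 CPM against 1.43 and 1.73 CPM. ADGRG1, an adhesion receptor also carried by neural progenitors, was the gene that was lower, at 20.6 and 32.2 CPM in the members, 3.43 and 4.95 CPM in strict members and 60.5 and 54.1 CPM in other cells (log2 fold change -0.89, edgeR adjusted p 0.0164). DESeq2 did not call ADGRG1 (adjusted p 0.299).

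All 22 tested transcription factors of the myeloid list were higher in the members (median log2 fold change 4.59), and 24 of 24 were measured. SPI1, which encodes the myeloid master regulator PU.1, stood at 223 and 213 CPM against 0.339 and 0.432 CPM (log2 fold change 9.43, SE 0.28). RUNX1, a factor of blood cell emergence, stood at 243 and 114 CPM against 0.822 and 1.84 CPM, and was more than 2 times as high in library A as in library B. IRF8, an interferon regulatory factor needed for microglia, stood at 92.8 and 102 CPM against 0.218 and 0.486 CPM. The CCAAT-enhancer factors CEBPA and CEBPB stood at 57.8 and 64.4 CPM and at 163 and 124 CPM. IKZF1, a factor of lymphoid and myeloid cells, stood at 72.2 and 59.5 CPM. The macrophage factor MAF stood at 489 and 411 CPM against 73.7 and 52.2 CPM. Factors shared with neural cells differed less, as for MEF2C at 439 and 404 CPM against 172 and 159 CPM (log2 fold change 1.61) and MEF2A at 408 and 272 CPM against 44.6 and 52.2 CPM (log2 fold change 3.09). BATF3, known from conventional dendritic cells, stood at 45.4 and 64.4 CPM against 0.0967 and 0.432 CPM. IRF4 and IRF7 held no UMI in the members.

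Receptors that signal through an immunoreceptor tyrosine-based activation motif pass their signal to the kinase SYK by way of adaptors such as TYROBP and FCER1G. All 17 tested genes of this list were higher (median log2 fold change 7.58). The adaptor FCER1G stood at 1103 and 1016 CPM against 1.57 and 2.27 CPM (log2 fold change 9.45). SYK stood at 134 and 81.7 CPM against 0.218 and 0.432 CPM, and the SRC family kinase LYN at 235 and 188 CPM against 29.4 and 33.5 CPM. Downstream of SYK, PLCG2 stood at 47.4 and 37.2 CPM, BTK at 30.9 and 32.2 CPM and VAV1 at 45.4 and 34.7 CPM. The inhibitory phosphatase PTPN6 stood at 55.7 and 59.5 CPM and INPP5D at 122 and 79.3 CPM. Each gene named here was called higher in the members. FGR, another SRC family kinase, was split between libraries and subsets, with 9 and 25 UMIs in all members but 7 and 2 in strict members.

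Complement and antibody recognition gave 7 higher genes of 10 tested (median log2 fold change 6.96), with 14 of 20 measured. C3, the central component of the cascade, stood at 1559 and 1149 CPM against 2.44 and 3.13 CPM (log2 fold change 9.26, SE 0.15). FCGR1A, the high-affinity receptor for antibodies, stood at 565 and 515 CPM against 5.27 and 5.89 CPM. The integrin chain ITGB2 stood at 116 and 114 CPM, and its partner ITGAM, which forms complement receptor 3 with it, held 9 and 1 UMIs. The receptor of complement fragment C5a, C5AR1, stood at 39.2 and 32.2 CPM against 0.242 and 0.432 CPM. CD59, which blocks the terminal pore, stood at 217 and 240.3 CPM against 42.9 and 45.1 CPM (log2 fold change 2.63). The early proteases C1R and C1S, the receptor CR1 and the inhibitor CD55 held no UMI in the members.

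Receptors for microbial and danger signals were called higher for 12 of 15 tested genes (median log2 fold change 4.79). CD14, the coreceptor for lipopolysaccharide, stood at 483 and 508 CPM against 1.06 and 1.78 CPM (log2 fold change 8.79). LY86, which pairs with the receptor CD180, stood at 396 and 401 CPM against 0.605 and 1.03 CPM. The toll-like receptor TLR1 stood at 99.0 and 57.0 CPM against 0.677 and 0.811 CPM, TLR2 at 30.9 and 29.7 CPM against 1.19 and 1.46 CPM and TLR4 at 37.1 and 32.2 CPM against 0.339 and 0.757 CPM. NLRP3, the inflammasome sensor, held 0 and 7 UMIs, all in library B. Of receptors for purines, chemokines and lipids, 8 of 11 tested were higher and 1 was lower. The adenosine receptor ADORA3 stood at 128 and 84.2 CPM against 0.194 and 0.108 CPM (log2 fold change 9.63). S1PR1, the sphingosine phosphate receptor, was the lower gene, at 16.5 and 34.7 CPM against 45.0 and 59.6 CPM (log2 fold change -0.80, edgeR adjusted p 0.0382), and was not called by DESeq2 (adjusted p 0.371). CXCR4, the receptor of CXCL12, did not pass the test, at 53.6 and 64.4 CPM against 52.9 and 56.8 CPM (log2 fold change 0.36, SE 0.23, edgeR adjusted p 0.288). Among ion channels, 8 of 10 tested were higher, led by TRPM2 at 61.9 and 74.3 CPM against 0.387 and 0.54 CPM. The potassium channel KCNK13, named as the resting conductance of adult microglia, held 5 and 1 UMIs and was called higher.

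Lysosomal genes were higher for 24 of 26 tested (median log2 fold change 3.19). CTSS, the cathepsin of antigen-presenting cells, stood at 540.4 and 481 CPM against 2.32 and 2.76 CPM (log2 fold change 7.95). CTSZ stood at 330.0 and 409 CPM against 1.43 and 3.35 CPM, and CTSC at 184 and 255 CPM against 1.09 and 1.57 CPM (log2 fold changes 7.65 and 7.63). Cathepsins of more general use differed less, as for CTSD at 460.0 and 599 CPM against 49.0 and 58.5 CPM (log2 fold change 3.55). NPC2, which carries cholesterol out of the lysosome, stood at 1656 and 1888 CPM against 57.7 and 71.6 CPM (log2 fold change 5.04, SE 0.11). CD68, a common stain for phagocytes, stood at 37.1 and 69.4 CPM against 2.03 and 1.68 CPM. GLA and MCOLN1 did not pass the test (edgeR adjusted p 0.0527 and 0.271).

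Of the lipid handling list, 14 of 16 tested genes were higher (median log2 fold change 3.56). APOE, the main lipid carrier of the brain, stood at 12347 and 11316 CPM in the members and 18197 and 15469 CPM in strict members, against 162 and 221 CPM in other cells (log2 fold change 6.23, SE 0.14). The cholesterol exporter ABCG1 stood at 142 and 79.3 CPM against 13.3 and 15 CPM, and the lipid droplet coat PLIN2 at 215 and 279.9 CPM against 33.7 and 42.3 CPM. Genes of the leukotriene and prostaglandin routes were among them. ALOX5 stood at 39.2 and 44.6 CPM against 0.169 and 0.108 CPM, LTC4S at 92.8 and 81.7 CPM against 4.21 and 4.81 CPM, and PTGS1 at 49.5 and 27.2 CPM against 0.194 and 0.216 CPM. The lipoprotein receptor SCARB1 did not pass the test (edgeR adjusted p 0.771).

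Microglia beside growing axon tracts of the newborn brain are known for SPP1, GPNMB, LPL, CLEC7A, IGF1 and LGALS3. Here 13 of 15 tested genes of that list were higher (median log2 fold change 3.95), and its genes differed widely in level. SPP1, the secreted matrix protein osteopontin, stood at 5272 and 9584 CPM against 11.3 and 9.51 CPM (log2 fold change 9.61, SE 0.17). IGF1 stood at 103 and 74.3 CPM against 2.30 and 1.73 CPM, and HMOX1, the enzyme that breaks down heme, at 163 and 173 CPM against 2.68 and 4.97 CPM. GPNMB and LPL each held 0 and 1 UMIs in the members of libraries A and B, and CST7 held none. CD9, a tetraspanin of the same state, stood at 4.13 and 7.43 CPM against 8.46 and 11.2 CPM and did not pass the test (edgeR adjusted p 0.662).

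The SPP1 level rested on a few cells. Among the 43 members of 30 or more gate UMIs in library A, SPP1 ranged from 0 to 87143 CPM around a median of 1032 CPM, and 5 cells held 75.5% of its UMIs. Among the 29 such cells of library B it ranged from 0 to 64073 CPM around a median of 563 CPM, and 5 cells held 93.8%. In these cells the median was thus lower in library B, while over all members it was 237 CPM in library A and 579 CPM in library B. Only 67 of 130 and 78 of 135 members held an SPP1 UMI, so the medians over all members lay near the level of 1 UMI. Of the 5 cells with the highest level, 2 in library A and 3 in library B also passed the border macrophage gate described next. P2RY12 was more even, with medians of 3108 and 2927 CPM, highest values of 7057 and 8173 CPM, and 21.6% and 30.9% of UMIs in 5 cells. TREM2 had medians of 1694 and 1699 CPM. APOE varied more widely, from 0 to 57927 CPM in library A and from 0 to 66748 CPM in library B, with medians of 13269 and 11199 CPM. Cells are not replicates, so these ranges carry no test.

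**Figure D3:**
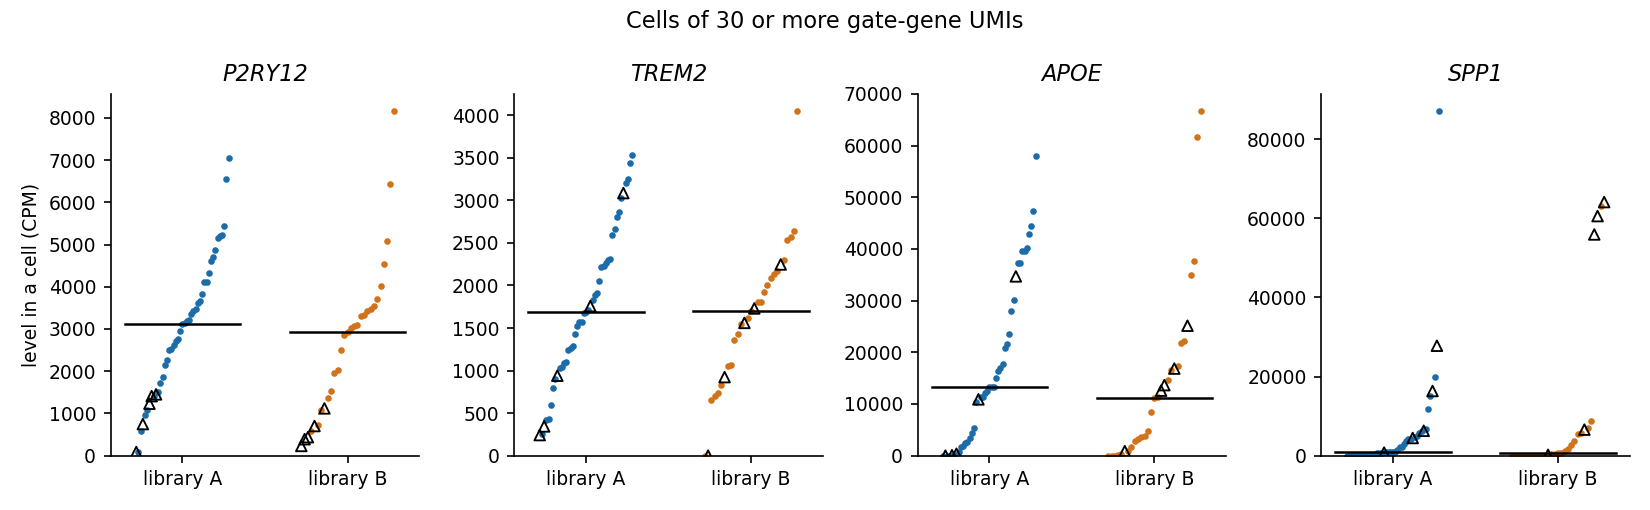
Level of 4 genes (vertical axes, CPM) in each gated cell of 30 or more gate UMIs, ordered by level within library A (43 cells) and library B (29 cells); lines are medians and open triangles are cells with at least 2 UMIs of border macrophage genes. P2RY12 and TREM2 are spread over most cells, whereas SPP1 is low in most cells, with medians of 1032 and 563 CPM, and reaches 87143 CPM in library A and 64073 CPM in library B.

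Border macrophages were few. A second gate, at least 2 summed UMIs of MRC1, LYVE1, F13A1 and the unmeasured CD163, took 7 members in each library, 6 and 5 of them in the strict subset. Outside the members, 2 cells of library A and 0 cells of library B reached it. With fewer than 20 cells in a sum no test was run, and these cells are described by their values. The border-gated cells held a median of 40 gate UMIs in library A and 51 in library B. No minimum of 30 gate UMIs was set for them, and their lowest values were 9 and 4. They were deeper, with medians of 8266 and 8665 UMIs against 5350 and 5459 in the class set beside them next. Beside members of 30 or more gate UMIs with no border UMI, the border-gated cells held less of the microglial receptor P2RY12, at 955 and 607 CPM against 2862 and 2714 CPM, and less C3, at 838 and 772 CPM against 2484 and 2169.9 CPM. IL7R stood at 195 and 92.0 CPM against 1171 and 1031 CPM, and BIN1 at 136 and 129 CPM against 615 and 842 CPM. In each of these 4 genes both libraries of border-gated cells lay below both libraries of the others. Other genes divided the classes less. GPR34 stood at 1208 and 754 CPM against 1333 and 1415 CPM, and TREM2 at 1188 and 1563 CPM against 1874 and 1720 CPM. SELENOP, a gene of the border list, was higher in library A alone, at 468 and 257 CPM against 256 and 305 CPM. The scavenger receptor CD36 went the other way, at 779 and 368 CPM against 108 and 58.1 CPM, as did IGF1 at 389.6 and 239 CPM against 78.7 and 58.1 CPM and SPP1 at 12156 and 45081 CPM against 7427 and 7794 CPM. Single cells with no border UMI reached 87143 CPM of SPP1 in library A and 63137.5 CPM in library B. FCER1G, high in both classes, stood at 1889.7 and 1931 CPM against 1476 and 1509.5 CPM. Over all members, 8 of 9 tested border genes were higher than in other cells (median log2 fold change 6.42), with STAB1 at 142 and 151 CPM, SELENOP at 198 and 191 CPM and DAB2 at 171 and 131 CPM. STAB1 was not confined to the border-gated cells, since 26 of 43 and 23 of 29 members of 30 or more gate UMIs held it.

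Markers of other blood cells were scarce. Of the monocyte and granulocyte list, 9 of 17 genes were measured, and 5 of these (PLAC8, CXCR2, MPO, LTF and NFE2) held no UMI in the members. The neutrophil and monocyte gene S100A8 held 0 and 1 UMIs, S100A9 1 and 1 and S100A4 0 and 1. LYZ, the lysozyme gene and the one gene of the list that was tested, was lower, with 0 and 1 UMIs in the members against 4.55 and 26.7 CPM in other cells, while endothelial-gated cells held 304 and 404 CPM. The T cell receptor genes CD3D, CD3E and CD3G and the B cell gene CD79A held no UMI. Of the 5 tested lymphocyte genes 3 were higher, namely IL7R, CD8A and CD2. CD8A held 20 and 8 UMIs and CD2 8 and 10 UMIs in all members, and CD2 held the same number in strict members. In members of 30 or more gate UMIs, IL7R was found in 39 of 43 and 25 of 29 cells and CD8A in 13 and 7, so RNA of these receptors sat in the cells with most gate RNA. CD2 held 1 and 10 UMIs in members of 30 or more gate UMIs, from 1 and 2 cells. In library A 7 of its 8 UMIs lay in 1 border-gated cell of fewer than 30 gate UMIs. The mast cell gene KIT did not pass the test, at 18.6 and 24.8 CPM against 16.5 and 15.1 CPM (edgeR adjusted p 0.255).

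Of the antigen presentation list, 8 of 11 tested genes were higher (median log2 fold change 3.93). B2M, the light chain of class I molecules, stood at 1718 and 1776 CPM against 122 and 175 CPM (log2 fold change 3.84, SE 0.11). The costimulatory gene CD86 stood at 30.9 and 39.6 CPM against 0.0725 and 0.108 CPM, and CD80 at 30.9 and 22.3 CPM against 0.726 and 0.595 CPM. CD74, the invariant chain of class II molecules, held 14 and 3 UMIs (28.9 and 7.43 CPM), against 0.701 and 1.13 CPM in other cells, and was called higher. CIITA, the activator of class II genes, held no UMI in the members, and the class II chains of the list were unmeasured.

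All 6 tested cytokines and chemokines were higher (median log2 fold change 7.82), with 12 of 18 measured and IL6, CCL2, CCL3 and CCL4 among the unmeasured. Measured genes that failed the filter on low counts are not in this count, and TNF passed it only through the members. IL18, a cytokine stored as a precursor, stood at 417 and 367 CPM against 2.06 and 2.27 CPM (log2 fold change 7.79). TNF stood at 136 and 146 CPM against 0.339 and 0.54 CPM (log2 fold change 8.63), and TGFB1 at 82.5 and 81.7 CPM against 5.76 and 7.57 CPM. At this depth TNF was found in 16 of 43 and 15 of 29 members of 30 or more gate UMIs, and 5 cells held 62.8% and 75.0% of its UMIs there. IL1A held 7 and 1 UMIs and IL1B 3 and 5.

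Targets of NF-kappaB were higher for 12 of 13 tested (median log2 fold change 2.62). NFKBIA, the inhibitor that NF-kappaB induces, stood at 677 and 483 CPM against 30.3 and 37.1 CPM (log2 fold change 4.39), and CD83 at 241 and 186 CPM against 2.54 and 3.13 CPM. Immediate early and stress genes were higher for 18 of 22 tested and lower for 1 (median log2 fold change 2.49). ZFP36, which speeds the decay of cytokine messages, stood at 681 and 438 CPM against 11.2 and 15.9 CPM (log2 fold change 5.68). JUNB stood at 736 and 736 CPM against 36 and 62.5 CPM, FOS at 1475 and 1159 CPM against 329 and 356 CPM, and EGR3 at 84.6 and 89.2 CPM against 0.556 and 1.30 CPM. These genes were also called higher than in endothelial-gated cells, which held FOS at 342 and 458 CPM, JUNB at 236 and 379 CPM and ZFP36 at 47.1 and 82.8 CPM. The part of enzymatic dissociation in these levels was not tested. HSP90AA1, a chaperone, was the lower gene, at 1097 and 1011 CPM against 1648 and 1647 CPM (log2 fold change -0.38), a call that DESeq2 did not make (adjusted p 0.0946). Interferon-stimulated genes stood apart from these lists. Of 12 tested, 1 was higher (IRF9, at 37.1 and 14.9 CPM against 13.2 and 16.1 CPM, above the other cells in library A alone) and 1 was lower (ISG15, with 0 and 1 UMIs in the members against 10.4 and 12.2 CPM), and the median log2 fold change of 0.21 became -0.05 with library totals alone. DESeq2 called neither gene (adjusted p 0.343 for IRF9 and 0.285 for ISG15). RSAD2 and IRF7 held no UMI in the members.

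Growth factors and guidance ligands were mixed, with 8 of 18 tested higher and 1 lower (median log2 fold change 0.79). GAS6, the ligand that bridges dying cells to MERTK and AXL, stood at 179 and 151 CPM against 1.64 and 6.0 CPM (log2 fold change 5.96). PDGFB, the ligand that recruits pericytes, stood at 61.9 and 34.7 CPM against 1.52 and 7.08 CPM (log2 fold change 4.14). The lower gene was VEGFA, the main angiogenic factor, which held no UMI in the members and stood at 10.3 and 10.2 CPM in the other cells. Against the 3 counts per library that a count of 0 allows, this was at least 1.67-fold lower in library A and at least 1.37-fold lower in library B. DESeq2 did not call VEGFA (adjusted p 0.0968). BDNF held 0 and 1 UMIs, and HGF stood at 6.19 and 9.91 CPM against 17.7 and 15.9 CPM without passing the test (edgeR adjusted p 0.316).

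A list of ligands by which neural cells address microglia, which also holds receptors such as SIRPA, was in part higher in the members. Of 10 tested genes 5 were higher and none was lower. SIRPA, the receptor of the "do not eat me" signal, stood at 231 and 203 CPM against 30.3 and 29.1 CPM (log2 fold change 3.13), and its ligand CD47 at 276 and 186 CPM against 86.8 and 90.9 CPM (log2 fold change 1.65). CSF1, a ligand of the CSF1 receptor, stood at 14.4 and 34.7 CPM against 1.67 and 1.89 CPM. The other ligand of that receptor, IL34, held no UMI in the members, and CX3CL1, the ligand of CX3CR1, held 0 and 1 UMIs against 3.14 and 4.05 CPM in the other cells.

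Actin and motility genes were higher for 19 of 20 tested (median log2 fold change 6.12). LCP1, the actin bundler of leukocytes, stood at 206 and 191 CPM against 0.653 and 1.41 CPM, DOCK8 at 186 and 136 CPM against 2.18 and 2.65 CPM and ARPC1B at 272 and 279.9 CPM against 2.37 and 6.76 CPM. Their log2 fold changes were 7.98, 6.35 and 6.36. General actin regulators differed less, with PFN1 at 998 and 1095 CPM against 269 and 310.3 CPM (log2 fold change 2.12) and TMSB4X at 12534 and 12559 CPM against 8549.8 and 8796 CPM (log2 fold change 0.79). CAPG did not pass the test (edgeR adjusted p 0.454).

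Iron and heme handling gave 7 higher genes of 10 tested and 1 lower (median log2 fold change 1.54). The ferritin light chain FTL stood at 9634 and 9759.9 CPM against 3194 and 3476 CPM, and the heavy chain FTH1 at 3282 and 3832 CPM against 1797 and 2036 CPM. Ferritin and thymosin genes have near-identical copies in many genomes, and how the counting treated such copies is not given, so these levels are uncertain. The iron exporter SLC40A1 stood at 99.0 and 99.1 CPM against 5.32 and 8.76 CPM (log2 fold change 4.13). TFRC, the receptor that takes iron in, was the lower gene and was uneven, with 0 and 10 UMIs in libraries A and B (0 and 24.8 CPM) against 26.5 and 46.9 CPM in other cells, and DESeq2 did not call it (adjusted p 0.134). Glycolysis was mixed, with 8 of 19 tested higher and 3 lower, and its median log2 fold change of 0.25 became -0.01 with library totals alone. HK2 stood at 30.9 and 32.2 CPM against 0.967 and 0.973 CPM (log2 fold change 5.27), whereas HK1, the hexokinase of most brain cells, stood at 72.2 and 61.9 CPM against 119 and 107 CPM and did not pass the test (edgeR adjusted p 0.059). LDHA was higher (log2 fold change 1.91), and LDHB, another subunit gene of lactate dehydrogenase, was lower (log2 fold change -0.73).

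Cell cycle genes were at or below the level of the other cells, a class that includes neural progenitors. Of 42 tested G2 and M phase genes none was higher and 19 were lower (median log2 fold change -0.75), and of 30 S phase genes none was higher and 3 were lower (median -0.38). Over all genes tested 14.8% were higher and 11.5% were lower, with a median of -0.14. The count of lower S phase genes lay near that share of all genes. TOP2A stood at 107 and 76.8 CPM in the members, 44.6 and 49.5 CPM in strict members and 215 and 200 CPM in other cells, and was lower. MKI67 stood at 28.9 and 24.8 CPM in the members, 24.0 and 24.8 CPM in strict members and 51.5 and 47.7 CPM in other cells, and did not pass the test (edgeR adjusted p 0.12). DESeq2 called 8 of the G2 and M phase genes lower, and edgeR on cells thinned to 1500 UMIs called 1. With the strict members edgeR called 26 of them and 9 S phase genes lower (medians -1.54 and -1.17), and without TMM factors 28 and 7. After that thinning, 12 of 130 members of library A (9.23%, 95% exact interval 4.86% to 15.6%) and 5 of 135 of library B (3.70%, 1.21% to 8.43%) held at least 10 UMIs of G2 and M phase genes, against 8.99% and 9.96% of other cells. Before thinning the shares were 17.7% and 13.3% of members and 18.7% and 19.6% of other cells. Among members of 30 or more gate UMIs the thinned counts were 2 of 43 and 1 of 29. After thinning, the share of the members was near that of the other cells in library A and lower in library B. The intervals cover counting error only, cells are not replicates, and these shares carry no test.

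**Figure D4:**
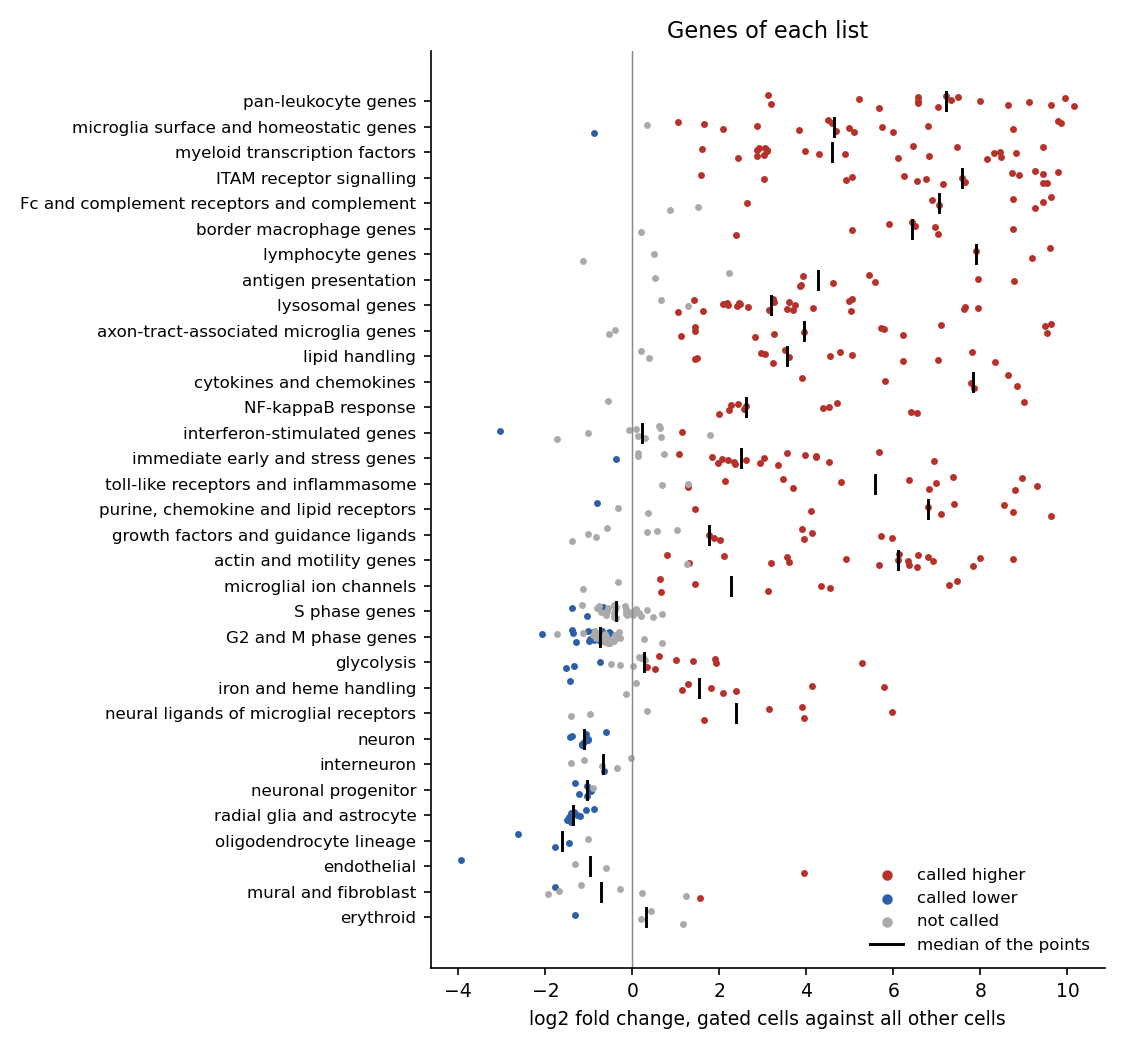
Log2 fold change of each tested list gene (horizontal axis) in gated cells against all other cells, by list, with red points called higher, blue points called lower, grey points not called and a black bar at the median of the points; genes with no UMI in one of the classes are left out. Leukocyte, phagocyte and signalling lists lie to the right of 0, with a median of 7.82 for the cytokines, interferon-stimulated genes lie around 0, and the neuron and the radial glia and astrocyte lists lie to the left of 0, with medians of -1.12 and -1.37.

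Neuron and radial glia genes were lower, but RNA of these genes was present in the members. The radial glia and astrocyte list was lower for 10 of 10 tested genes (median log2 fold change -1.37) and the neuron list for 9 of 9 (median -1.12). FABP7, the fatty acid carrier of radial glia, stood at 2976 and 4541 CPM in the members and 954 and 1283 CPM in strict members, against 11722 and 13264 CPM in other cells (log2 fold change -1.50). STMN2, a microtubule regulator of neurons, stood at 419 and 520.2 CPM in the members and 178 and 178 CPM in strict members, against 1187 and 1144 CPM in other cells (log2 fold change -1.06). In the strict subset the medians of these lists moved to -3.05 and -2.54. In members of 3 to 7 gate UMIs alone, 1 of 10 and 0 of 9 genes were called lower. Among single genes above 100 CPM in other cells, IGFBP7 had the largest negative difference, at 45.4 and 61.9 CPM against 165 and 501 CPM (log2 fold change -2.29), followed by RGCC at 16.5 and 37.2 CPM against 114 and 139 CPM. HES5, the Notch target of radial glia, stood at 28.9 and 47.1 CPM against 156 and 184 CPM (log2 fold change -1.92). Of oligodendrocyte lineage genes 3 of 6 tested were lower, as for OLIG1 at 18.6 and 32.2 CPM against 109 and 93.9 CPM, and OLIG1 held no UMI in strict members of either library. Neuronal progenitor genes were lower for 5 of 6 tested. Of 6 interneuron genes 1 was lower (median log2 fold change -0.67), none with DESeq2, 4 without TMM factors and 5 with the strict members. Of 9 mural and fibroblast genes 1 was lower (PDGFRB) and 1 was higher, ABCC9, with 17 and 2 UMIs in the members, nearly all in library A and not called by DESeq2 (adjusted p 0.410). Neither of 2 tested ependymal genes passed. The erythroid globin HBM was lower (28.9 and 7.43 CPM against 73.2 and 35.6 CPM), and HBA1 did not pass the test (22.7 and 54.5 CPM against 39.3 and 38.9 CPM, edgeR adjusted p 0.699). In strict members HBA1 was lower (log2 fold change -3.98, edgeR adjusted p 8.4e-05). Globin genes share sequence, so their UMIs could be split among copies.

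Endothelial-gated cells, those with at least 2 UMIs of CLDN5 outside the gate (143 in library A and 449 in library B), are another class of cells that are not neural, and had a depth like that of the members, with medians of 2582 and 2049 UMIs. Members were set against them to find which genes the 2 classes share. These cells were chosen by CLDN5, so their endothelial genes are a description of that choice. Of 8002 genes tested, 1137 (14.2%) were higher in the members and 1036 (12.9%) were lower (edgeR, paired by library), and 2170 of these 2173 had the same sign in both libraries. Higher genes were 52.3% of these calls with TMM scaling and 36.6% with library totals alone (796 higher and 1379 lower), which shifted the median log2 fold change by -0.22. SPI1 held no UMI in endothelial-gated cells and 223 and 213 CPM in the members, which is at least 37.8-fold and 80.6-fold higher in libraries A and B against 3 counts. TREM2 stood at 1260.2 and 1187 CPM against 1.96 and 3.52 CPM (log2 fold change 8.75) and C3 at 1559 and 1149 CPM against 3.93 and 5.29 CPM (log2 fold change 8.19). The 10 genes with the most negative differences all held no UMI in the members. KDR, the main receptor for vascular endothelial growth factor, stood at 283 and 293 CPM in endothelial-gated cells, at least 45.7-fold and 39.5-fold above the members. Of the other genes among these, VWF stood at 269 and 294 CPM there and CDH5, the cadherin of endothelial junctions, at 216 and 216 CPM. PECAM1 held 0 and 1 UMIs in the members against 528 and 545 CPM, and 6 of 7 tested endothelial genes were lower in the members.

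Several genes that were higher in the members than in all other cells were lower than in endothelial-gated cells or did not pass the test against them. Of the 22 myeloid factors above, 18 were tested here, 15 were higher in the members and 2 were lower. The lower ones were FLI1, an ETS factor of blood and vessels, at 124 and 86.7 CPM against 187 and 188 CPM (log2 fold change -0.63, edgeR adjusted p 0.0221), and KLF2, a factor induced by flow, at 84.6 and 64.4 CPM against 145 and 159 CPM (log2 fold change -0.82, edgeR adjusted p 0.00653). Neither was called lower with the strict members or by DESeq2. INPP5D stood at 122 and 79.3 CPM against 102 and 97.8 CPM and PIK3CG at 92.8 and 89.2 CPM against 74.6 and 103 CPM, and neither passed the test (edgeR adjusted p 0.597 and 0.531). From the microglia list, the organic anion carrier SLCO2B1 stood at 78.4 and 57.0 CPM against 126 and 96.1 CPM and the ectonucleotidase ENTPD1 at 111 and 71.8 CPM against 60.9 and 78.4 CPM, without passing the test (edgeR adjusted p 0.135 and 0.138). RASGRP3 was lower in the members, at 14.4 and 24.8 CPM against 149 and 174 CPM (log2 fold change -2.84). PDGFB was also lower in the members than in endothelial-gated cells, at 61.9 and 34.7 CPM against 104 and 99.6 CPM (log2 fold change -0.87), a call lost with the strict members (log2 fold change -0.07, edgeR adjusted p 0.872).

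EGFL7, a secreted protein used as an endothelial marker, was at least as high in the members as in endothelial-gated cells. It stood at 408 and 424 CPM in all members and 569.6 and 688 CPM in strict members, against 357 and 386 CPM in endothelial-gated cells and 23.5 and 44.6 CPM in all other cells. Against all other cells its log2 fold change was 3.95 (SE 0.14). Against endothelial-gated cells it was 0.37 (SE 0.14, edgeR adjusted p 0.0479), a call that was lost with library totals alone, and the sign turned in cells thinned to 1500 UMIs (log2 fold change -0.26, edgeR adjusted p 0.442). It was found in 39 of 43 and 27 of 29 members of 30 or more gate UMIs, while the other endothelial markers of the list were at most 2.06 and 9.91 CPM in the members (FLT1). Transport genes of the barrier divided the classes. SLC2A1, the glucose carrier, stood at 24.8 and 24.8 CPM in the members against 448 and 403 CPM (log2 fold change -3.88), and TFRC at 0 and 24.8 CPM against 322 and 423 CPM (log2 fold change -4.80). SLC40A1, the iron exporter, stood at 99.0 and 99.1 CPM against 114 and 83.7 CPM and did not pass the test (edgeR adjusted p 0.498).

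**Figure D5:**
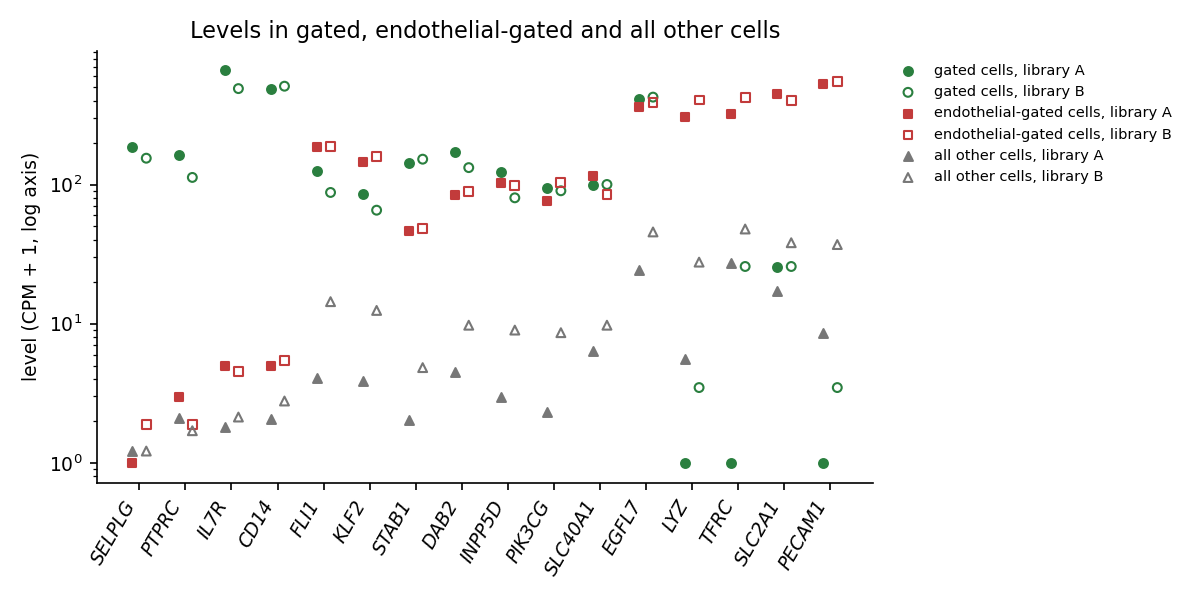
Level of 16 genes (vertical axis, CPM plus 1, log scale) in gated cells (circles), endothelial-gated cells (squares) and all other cells (triangles), with filled symbols for library A and open symbols for library B. SELPLG, PTPRC, IL7R and CD14 are high in gated cells and near the floor in the other classes, FLI1, KLF2, INPP5D, PIK3CG, SLC40A1 and EGFL7 are of the same order in gated and endothelial-gated cells, and LYZ, TFRC, SLC2A1 and PECAM1 are high in endothelial-gated cells.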

How the data were processed

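Single-cell RNA was measured in 2 libraries of dorsal cortex from wild-type ferrets at postnatal day 3. The authors deposited UMI counts, as whole numbers, for every gene in every cell. Cell Ranger is named in the submitters' processing notes, and the sources used here give neither its version nor a genome build or cell filter. The table lists 29816 gene names. Its last 7808 names held no UMI in any cell and are called unmeasured here. In all, 21317 names held a UMI, and RefSeq's symbols for ASM1176430v1.1 held 21231 of these (99.6%). No column of values was left unmapped.

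The libraries held 41836475 and 18907140 UMIs, and every member held at least 1525 UMIs in library A. Counts were summed per class and library. The edgeR quasi-likelihood test (edgeR 4.0.16 in R 4.3.3; with filterByExpr and TMM factors, and with the library as block, so that sums of the same library are paired) has 1 residual degree of freedom per gene, so the spread is pooled over genes. P-values were adjusted by the Benjamini-Hochberg method over all genes tested, with a threshold of 0.05. Gate genes and CLDN5 were left out of the counts of called genes. DESeq2 1.42.0, fits without TMM factors, without the filter or the block, other gates and thinned cells were alternatives. The fit was tested on simulated data. Border-gated cells were too few for a test (under 20 per sum). Scrublet, run through scanpy 1.11.5, marked 1 cell in library A and 0 in library B, so it did not work as a caller here, and no cell was removed as a doublet.

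Genes named were the 20 with the largest higher and the 10 with the largest lower log2 fold changes among called genes at or above 100 CPM in the higher class of both libraries (10 and 10 against endothelial-gated cells), of which the text gives a part, with called and uncalled members of each gene list. Members and gene lists were chosen with earlier results of these data known. No sequence is shown because the reference used here pairs names only. Some list genes are not reported here.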

Additional observations from a re-analysis of the deposited data

How the results depend on the processing

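The share of cells in the gate was 0.511% and 0.759% in libraries A and B with the strict gate, and 0.440% and 0.579% at 30 or more gate UMIs. Against all other cells, 790 genes were higher and 260 lower with cells thinned to 1500 UMIs, and 83 and 10 with members of 3 to 7 gate UMIs alone. Lower calls numbered 498 with DESeq2 and 2795 without TMM factors. Against endothelial-gated cells, DESeq2 gave 377 higher and 309 lower genes, thinned cells gave 360 and 463, and the strict members gave 1560 lower genes. Without the replicate block, which pairs the sums of each library, 2284 genes were higher and 1616 lower against all other cells, and 1171 and 1091 against endothelial-gated cells. It ended the edgeR calls of S1PR1, HBM, TFRC, LYZ, PECAM1, ABCC9, IRF9 and RASGRP3 against all other cells and of EGFL7 against endothelial-gated cells, and it added that of GLA.

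Of 172 results for single genes, directions turned as follows. ABCC9 was at -0.89 in library B alone (2.65 in library A alone) and -10.08 with members of 3 to 7 gate UMIs, where its sum held no UMI. In those members ADGRG1 was at 0.11, RASGRP3 at -0.37 and TMSB4X at -0.011. Against endothelial-gated cells EGFL7 was at -0.26 in thinned cells and FLI1 at 0.13 with the strict members. HBA1 was at -3.98 with the strict gate, at -1.37 without erythroid-positive members (a filter that itself removes globin UMIs) and at -12.20 at 30 or more gate UMIs, where it held few or no UMIs. DESeq2 kept 153 of the 172 on their side of the threshold, the fits without TMM factors 165 and the strict gate 158. Counts of called genes could not be tested with 1 library left out, since no residual degrees of freedom remain, and the comparison of border-gated with other members was not run. The cause of these shifts was not tested. The alternatives with members of 3 to 7 and of 30 or more gate UMIs, and the strict members against endothelial-gated cells, were chosen after seeing the data. Depth limits genes with few UMIs: a count of 0 in the members allows up to 6.19 and 7.43 CPM.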

Other observations

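Outside the gene lists, some of the most abundant RNAs of the members were not part of any comparison above, and were picked out after their values were seen. LOC101673853, a gene known here by its locus number alone, stood at 47538 and 48965 CPM in the members of libraries A and B and 64344 and 76579 CPM in strict members, against 401 and 508 CPM in other cells (log2 fold change 7.0, SE 0.17). In members of 30 or more gate UMIs its median was 79069.8 and 89210.5 CPM, more than that of APOE. APOC1, an apolipoprotein encoded beside APOE in mammals, stood at 947 and 912 CPM against 15.3 and 19.1 CPM. SAT1, an enzyme of polyamine breakdown, stood at 1720.2 and 1407 CPM against 91.7 and 110.0 CPM, and RNASET2, a ribonuclease of the lysosome, at 1151 and 1058 CPM against 33.8 and 48.7 CPM. MITF, a transcription factor of lysosomal genes and of pigment cells, stood at 571 and 441 CPM against 6.12 and 8.32 CPM, and IFI30, the thiol reductase of antigen processing, at 681 and 530.1 CPM against 2.37 and 4.49 CPM. FCGRT, the neonatal receptor for antibodies, stood at 458 and 471 CPM against 14.2 and 35.3 CPM. All of these were called higher by edgeR. LMO2, a factor of blood and vessel formation, stood at 264 and 235 CPM in the members and 249 and 241 CPM in endothelial-gated cells, against 8.88 and 21.5 CPM in all other cells.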
